A study of Mus musculus with 4 samples.

Results

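The difference between 2 retinoic acid responses was described gene by gene: the response of a P19 clone that overexpresses Ctcfl, minus the response of wild-type P19 cells. P19 is a mouse embryonal carcinoma line, a pluripotent tumour line that differentiates when it is given retinoic acid. Each response is the log2 signal with retinoic acid minus the log2 signal without it in the same line, so a positive difference means that the Ctcfl line ended relatively higher after treatment. Every probe set with exactly 1 gene symbol was a member, 23521 of 41345 on the array, and these stood for 22180 genes. Of those genes, 18310 reached log2 6 on at least 1 array and were carried on.

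There were 4 groups, each with 1 array of total RNA. The wild-type groups were parental P19 cells given the ethanol vehicle, or 10 µM retinoic acid for 4 days. The Ctcfl groups came from 1 stably transfected clone, labelled pBI-EGFP-FLAG-mCtcfl and pTA-N, in which a Tet-Off system holds the tagged mouse Ctcfl transgene silent while doxycycline is present. For both Ctcfl groups doxycycline had been withdrawn 2 days before RNA was extracted, and the cells received the vehicle or 10 µM retinoic acid for 4 days. The labels conflict on doxycycline, since the characteristics of all 4 samples, both Ctcfl ones included, list 2 µg/ml. The culture description names ordinary medium for the wild-type cells, and withdrawal is stated for the Ctcfl groups. Transgene, clone, vectors and any doxycycline in the medium therefore cannot be told apart as sources of a line difference. With 1 array per group there were 0 residual degrees of freedom, so no difference was tested and no replicate error can be given. An error on either wild-type array enters the wild-type response and the difference with opposite signs.

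Retinoic acid enters the nucleus and binds heterodimers of retinoic acid and retinoid X receptors, which sit on direct repeats in the DNA of target genes and switch from repression to activation when the ligand arrives. Among the direct targets are the receptor gene Rarb, the degrading enzyme Cyp26a1 and the 3′ Hox genes, so the signal limits itself while it patterns the embryo. Ctcfl, also called BORIS, is a germ-line paralog of the insulator protein CTCF and shares its DNA-binding zinc fingers.

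The overexpressed gene separated the lines in both states. Ctcfl measured log2 7.86 and 7.13 in wild-type cells without and with retinoic acid, and 10.41 and 9.56 in the Ctcfl line. The line difference was therefore similar before and after treatment, 5.85-fold and 5.36-fold, and the responses themselves differed by log2 -0.13. Ctcf, the ubiquitous paralog, lay between 10.61 and 10.87 on the 4 arrays. All 10 embryonal carcinoma markers were above log2 6 on each array, with medians of 10.94 and 8.75 in wild type and 11.50 and 9.49 in the Ctcfl line. Of the 6 blood markers, 4 were measured, and none exceeded log2 6.75. Array medians lay between 6.95 and 6.96, but the third quartile was 8.68 on the treated Ctcfl array and 8.53 to 8.58 on the others. Pearson correlations between arrays over the genes ranged from 0.961 to 0.985. For the 874 genes with more than 1 probe set past the filter, the difference of responses varied between probe sets of the same gene with an SD of 0.321, which is a measure of probe-to-probe disagreement and not of biological replication.

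Over all 18310 genes the median difference of responses was log2 -0.01 with an SD of 0.411. A difference of at least 2-fold was found for 486 genes, 2.65% of those measured. The Ctcfl line was relatively higher in 348 of them (1.90%) and relatively lower in 138 (0.754%). The range ran from log2 -2.97 for Nepn, which encodes the matrix proteoglycan nephrocan, to 3.47 for Lefty1, which encodes a secreted Nodal antagonist. At the upper threshold Matn2, a matrilin gene, lay just inside at 1.00 and the clone-named 9430065F17Rik just outside at the same rounded value. At the lower one, Vmn1r25, a vomeronasal receptor gene, lay inside at -1.01 and Mmp14, a membrane-bound matrix metalloproteinase gene, just outside, with a difference that rounds to the threshold.

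These 486 genes were sorted by which line responded at least 2-fold. Blunted genes responded at least 2-fold in the same direction in both lines but less in the Ctcfl line. There were 25, and the widest gap among them was that of Nepn. Exaggerated genes responded in both lines but more in the Ctcfl line, and there were 11, led by Ap3b2, which encodes a neuronal adaptor-complex subunit. A wild-type-specific response, at least 2-fold in wild type and smaller than that in the Ctcfl line, was seen for 169 genes, 121 of them downward as for Rassf4 and 48 upward as for Twist1. A Ctcfl-line-specific response was seen for 134 genes, 100 upward as for Lefty1 and 34 downward as for Ccnd1. In the remaining 147 neither response reached 2-fold by itself although the pair lay 2-fold apart. No gene responded at least 2-fold in opposite directions in the 2 lines, although 1 did when each response was first centred on its median.

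**Figure D1:**
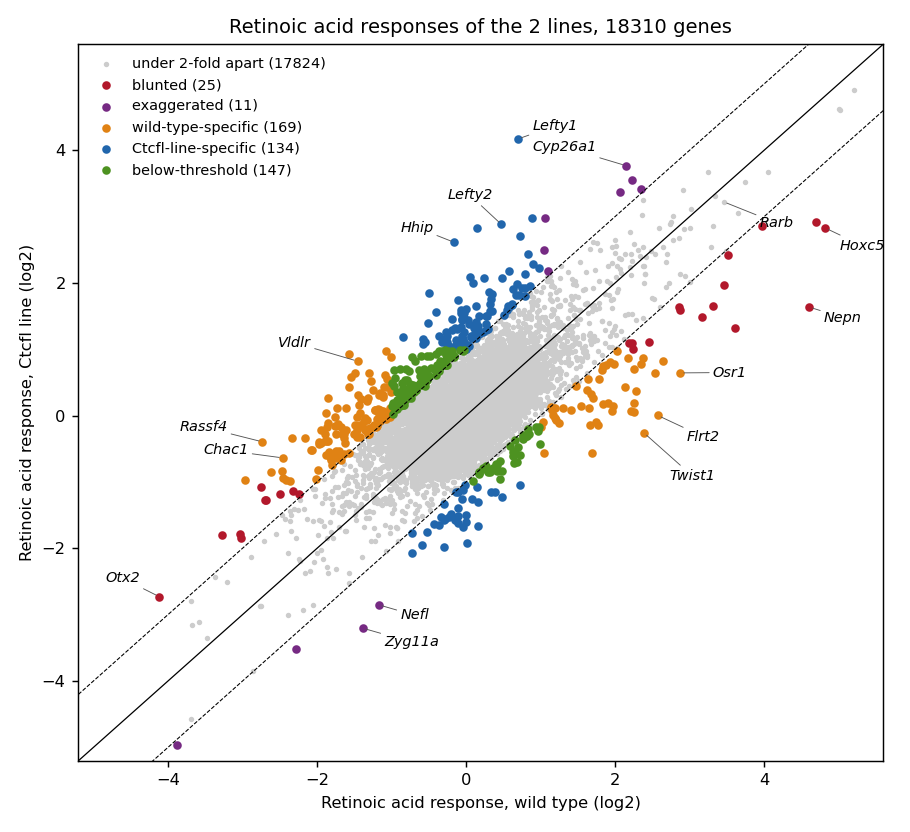
Retinoic acid response of each of 18310 genes in wild type (x axis, log2) and in the Ctcfl line (y axis, log2), with 1 array per group and no error bars. Grey points lie under 2-fold from the solid line of equal response, dashed lines mark 2-fold, and colours mark the 5 classes that held genes; Lefty1 stands furthest above the diagonal at 3.47 and Nepn furthest below at -2.97.

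Read from the responding genes, the classes were uneven. Of 479 genes at least 2-fold down in wild type (2.62% of all genes), 135 (28.2%) were unequal between the lines. Their median response was log2 -1.33 in wild type and -0.67 in the Ctcfl line. Of 274 genes down in the Ctcfl line (1.50%), 48 (17.5%) were unequal, with medians of -1.34 there and -1.22 in wild type. For upward responses, 70 of 473 wild-type responders (14.8%) and 122 of 588 Ctcfl-line responders (20.7%) were unequal, these responders being 2.58% and 3.21% of all genes. Because responders were picked on the arrays of their own line, a smaller median in the other line follows partly from that choice.

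A difference of responses can come from the starting state or from the treated state. Among the 348 relatively higher genes, the lines were 2-fold apart in undifferentiated cells alone for 112 (32.2%), after retinoic acid alone for 69 (19.8%), in both states for 4, and in neither alone for 163 (46.8%). Over all genes, the Ctcfl line was 2-fold higher in 0.726% and lower in 1.09% before treatment, and higher in 0.830% and lower in 0.399% after it. Rassf4, a RAS-association domain gene, is an example of the first kind, with a line difference of log2 -2.46 before treatment and -0.12 after it. Lefty1 is of the second kind, with -0.78 before and 2.70 after. Vldlr, the very low density lipoprotein receptor gene, is 1 of the 4, at -1.03 and 1.25. Among the 138 relatively lower genes the counts were 45, 43, 0 and 50. Ccnd1, the cyclin D1 gene, was 1.82 higher in the Ctcfl line before treatment and 0.40 higher after it. Twist1 was 0.57 higher before treatment and differed by -2.08 after it.

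**Figure D2:**
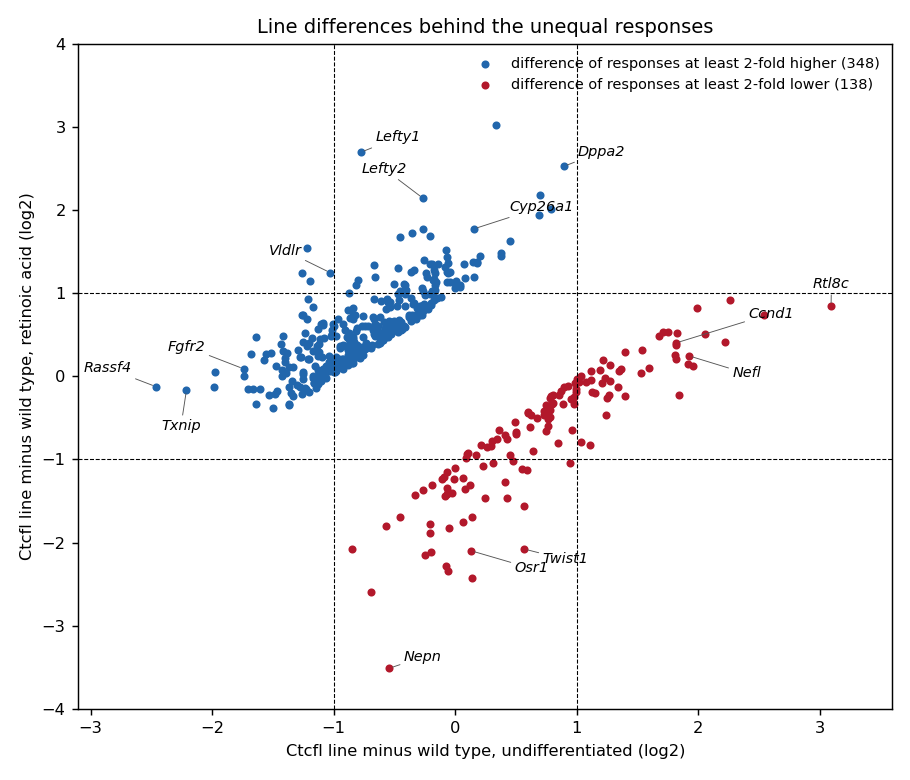
Line difference (Ctcfl line minus wild type, log2) in undifferentiated cells on the x axis and after retinoic acid on the y axis, for the 348 genes with a relatively higher response (blue) and the 138 with a relatively lower one (red), 1 array per group. Dashed lines mark 2-fold; Rassf4 and Rtl8c sit far out along the x axis, Lefty1 and Nepn along the y axis.

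Single arrays stood behind many of these genes. In 229 of the 486 genes, 1 array lay apart from 3 others that agreed to within log2 0.5. The wild-type undifferentiated array was the high one for 67 genes (13.8%), the undifferentiated Ctcfl array the low one for 45 (9.26%), and the treated Ctcfl array the high one for 39 (8.02%). Among the 121 wild-type-specific downward responses, 115 had their highest signal on the wild-type undifferentiated array, a position that the class rule itself favours. In that state the Ctcfl line differed from wild type by a median of log2 -1.03, against 0.43 after retinoic acid. Whether these arrays would repeat was not tested.

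The 2 Lefty genes had large upward responses in the Ctcfl line and responses under 2-fold in wild type. They encode secreted inhibitors that Nodal signalling switches on and that block Nodal in turn. Lefty1 measured log2 9.47 and 10.17 in wild-type cells without and with retinoic acid, and 8.70 and 12.87 in the Ctcfl line. Lefty2 measured 6.89 and 7.36 in wild type, and 6.63 and 9.51 in the Ctcfl line. For both genes the treated Ctcfl array was far above the other 3. The Lefty1 responses were 0.70 and 4.17, a difference of 3.47, or 11.1-fold. Those of Lefty2 were 0.47 and 2.88, a difference of 2.41, or 5.30-fold. The genes are close paralogs, and how well their probe sets tell them apart was not tested.

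The rest of the Nodal pathway did not share this gap. The list held 23 measured genes with a median difference of 0.05. The Lefty genes were the 2 past 2-fold, against 2.65% of all genes. Nodal, the ligand, measured 9.02 and 9.32 in wild type and 10.36 and 10.94 in the Ctcfl line. It was thus 2.52-fold and 3.07-fold higher in the Ctcfl line in the 2 states, while its responses differed by 0.28. Tdgf1, the Nodal co-receptor Cripto, had responses of -3.69 and -4.57. Pmepa1, a target and inhibitor of TGF-beta signalling, came nearest to the threshold among the others, with a difference of 0.94. Foxh1, the partner of SMAD2 and SMAD3 on Nodal targets, differed by 0.05.

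**Figure D3:**
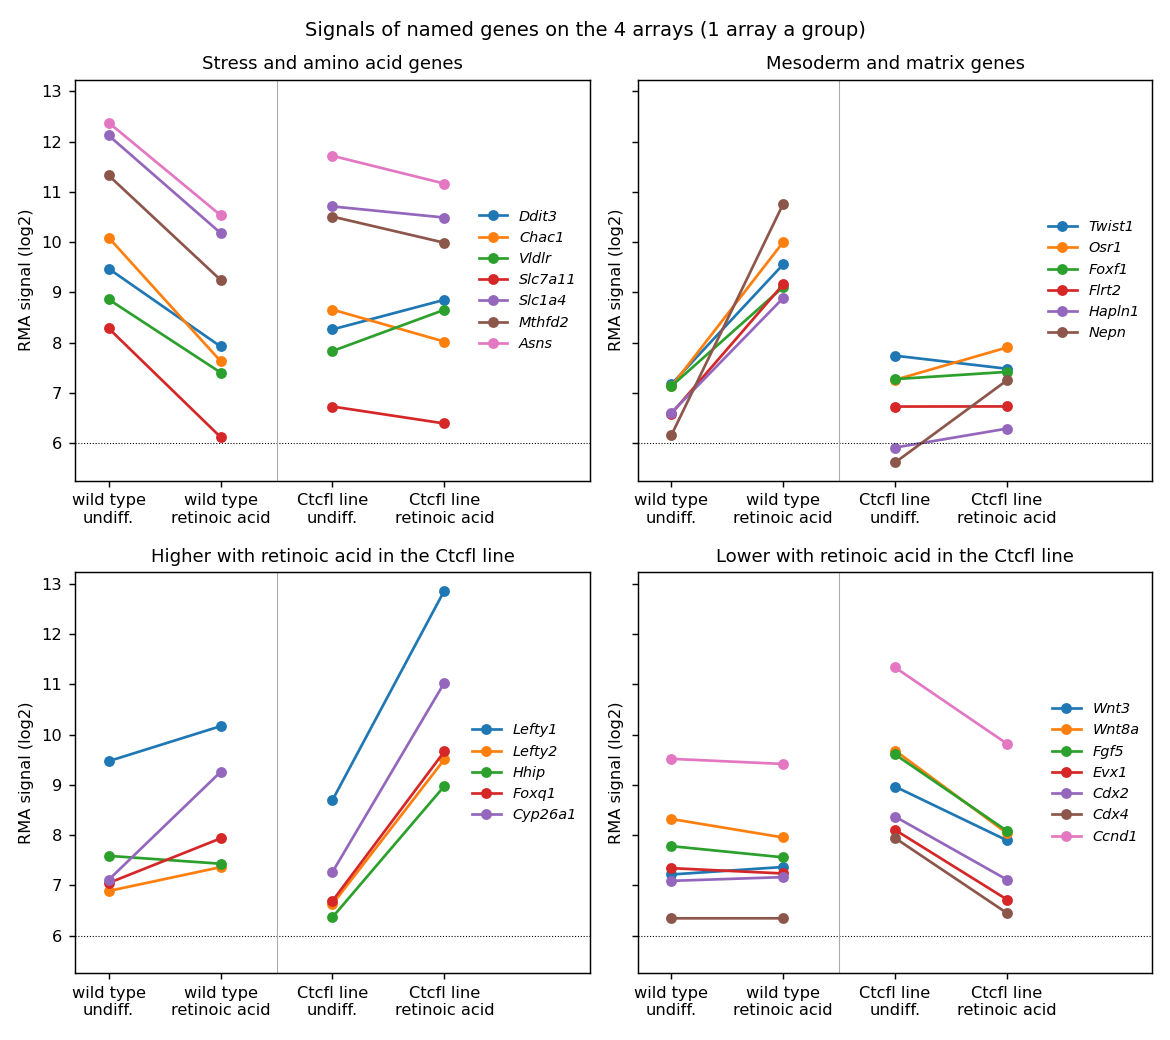
Log2 signal on each of the 4 arrays (x axis: wild type without and with retinoic acid, then the Ctcfl line without and with it) for named genes of the classes described, 1 array per point and no error bars. The dotted line marks the filter at log2 6; the panels show the treated Ctcfl array standing out for Lefty1 (12.87) and the wild-type undifferentiated array for genes such as Chac1 (10.09).

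Other genes with an upward response of at least 2-fold in the Ctcfl line alone included signalling components. Hhip encodes a membrane protein that binds and dampens Hedgehog ligands. Its signals were 7.59 and 7.43 in wild type and 6.37 and 8.98 in the Ctcfl line, so that the low and the high array both belonged to the Ctcfl line (difference 2.77). Fgfr2, a fibroblast growth factor receptor gene, measured 10.39 and 10.64 in wild type and 8.65 and 10.73 in the Ctcfl line. Its difference of 1.83 rested on the undifferentiated Ctcfl array, the low one of the 4. Foxq1, a forkhead factor gene, measured 7.05, 7.94, 6.69 and 9.67 in the same order, a difference of 2.09, but its other probe set gave 0.43. Acss1, which encodes mitochondrial acetyl-CoA synthetase, likewise had 2.34 on the probe set used and 0.27 on its other one.

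Smaller differences of this class were found for single genes of several lists. Sox10, a neural crest and glial transcription factor gene, measured 7.38 and 7.42 in wild type and 7.21 and 8.59 in the Ctcfl line, a difference of 1.34. Erbb3, a neuregulin receptor gene found in the same lineage, had responses of -0.26 and 1.11. Notch1 had responses of -0.23 and 1.05, and Dll1, which encodes a Notch ligand, of 0.86 and 1.96, though the second Dll1 probe set gave a difference of -0.09. Grhl3, a surface ectoderm factor gene, differed by 1.45, and Oasl2, an interferon-induced gene, by 1.23. The neural plate and neural tube list of 42 genes, which holds Notch1 and Dll1, had a median of -0.09 with 4 genes 2-fold higher and 1 lower. The trophoblast and simple epithelium list, which holds Grhl3, had 18 of 26 genes below 0 and a median of -0.35, with Cdx2, Krt19 and Cldn6 2-fold lower. The neural crest list of 18 genes had a median of -0.15 with 2 genes 2-fold higher and 3 lower. The interferon list of 23 genes had a median of 0.18 with Oasl2 past 2-fold. Over all genes, 1.90% were 2-fold higher and 0.754% lower.

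The retinoid system itself was split. Of its 24 measured genes, 13 responded at least 2-fold upward in wild type and 9 in the Ctcfl line, against 2.58% and 3.21% of all genes. The median difference was -0.07. Differences were 2-fold higher for 2 genes and lower for 3, against 1.90% and 0.754% of all genes. The 2 genes that stood higher both encode proteins that act on retinoic acid itself. Cyp26a1, the enzyme that degrades retinoic acid, measured 7.11 and 9.26 in wild type and 7.27 and 11.03 in the Ctcfl line. The treated Ctcfl array was the highest, and the responses of 2.15 and 3.77 differed by 1.62, or 3.08-fold. Crabp2, which carries retinoic acid to its nuclear receptors, measured 10.22 and 12.45 in wild type and 9.13 and 12.68 in the Ctcfl line. The treated levels were close, and the difference of 1.33 came mostly from the lower starting level.

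The 3 retinoid genes that stood lower were wild-type-specific. Rdh10 and Aldh1a2 encode the enzymes of the 2 steps from retinol to retinoic acid, and Nr2f1 encodes the orphan receptor COUP-TFI. Rdh10 measured 7.94 and 9.68 in wild type and 8.98 and 8.89 in the Ctcfl line, a difference of -1.84. Aldh1a2 measured 6.44 and 8.37 in wild type and 6.25 and 7.06 in the Ctcfl line, a difference of -1.12. The wild-type treated array was the highest for each of them. Nr2f1 gave responses of 2.37 and 0.87. The other degrading enzyme gene with a response, Cyp26b1, went the way of the synthesis genes without reaching 2-fold, with responses of 3.28 and 2.55. Dhrs3, which returns retinal to retinol, had 3.25 and 3.67, and Stra6, the retinol uptake receptor gene, had 2.64 and 2.54.

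Rarb, the classical direct target, responded alike in the 2 lines. It measured 6.63 and 10.09 in wild type and 6.54 and 9.77 in the Ctcfl line, so its responses of 3.45 and 3.22 were 1.17-fold apart. Both Rarb and Cyp26a1 carry the receptor's binding motif just upstream of their start sites, and the stretches are shown because these genes share the motif and not the difference. The motif searched, called DR5, is a direct repeat of the receptor's recognition sequence with 5 bases between the copies, and it was looked for on both strands. Promoter windows of 300 bases, 250 before the start site and 50 after it, came from RefSeq on GRCm38.p6. The stretches lie at chr19:37697746-37697807 on the plus strand for Cyp26a1 and at chr14:16575483-16575559 on the minus strand for Rarb, with the motif in capitals.
Cyp26a1: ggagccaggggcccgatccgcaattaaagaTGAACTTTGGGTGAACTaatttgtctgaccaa
Rarb: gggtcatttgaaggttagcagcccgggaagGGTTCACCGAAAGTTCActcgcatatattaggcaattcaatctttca
Of 20 retinoid genes with a window, these 2 held the motif, against 10 of 14149 genes past the filter (0.0707%) and 32 of all 32851 windows (0.0974%). The motif was thus present in a gene with a 3.08-fold gap and in a gene with a 1.17-fold gap. A match is a description of the letters and not evidence of binding.

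Transcription factors known as retinoic acid targets had mostly lower differences. Of 24 measured, 21 had a difference below 0, against 9399 of the 18310 genes, and the list median was -0.43. None was 2-fold higher and 5 were 2-fold lower, against 1.90% and 0.754% of all genes. Of the 5, Cdx2 had the larger response in the Ctcfl line, 0.07 against -1.26. Meis2, a HOX cofactor gene, measured 8.49 and 11.95 in wild type and 10.02 and 11.99 in the Ctcfl line. The treated levels were nearly equal, and the difference of -1.49 reflected a higher start in the Ctcfl line. Pax6, an eye and neural tube factor gene, had responses of 2.22 and 1.09, and Tfap2a, a neural crest and ectoderm factor gene, had 0.68 and -0.69. Others were close to equal, and Tshz1, a zinc finger factor gene, had responses of 5.20 and 4.91. Gata6, an endoderm factor gene, had 3.31 and 2.85.

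The Hox genes, which set position along the body axis, responded upward in both lines. The list held 36 genes. Of these, 17 were at least 2-fold up in wild type and 20 in the Ctcfl line, against 2.58% and 3.21% of all genes. Their median responses were 0.95 and 1.43, and 23 differences lay above 0 with a list median of 0.16. Of the 36 genes, 25 had their highest signal on the treated Ctcfl array and 5 on the treated wild-type array. Over all 18310 genes these counts were 4240 and 3371. A gene that rises in both lines is highest on a treated array, so part of this follows from the shared rise. Hoxb1, an early target, measured 7.50 and 11.55 in wild type and 7.96 and 11.63 in the Ctcfl line. Hoxa5 had responses of 5.02 and 4.60, and Hoxb4 of 2.78 and 2.65. These 3 genes responded by similar amounts in the 2 lines. The 3 members 2-fold apart, against 2.65% of all genes, all lie in the HoxC cluster. Hoxc8 measured 6.95 and 7.99 in wild type and 6.77 and 9.27 in the Ctcfl line, a difference of 1.46. Hoxc9 measured 6.42, 6.70, 6.23 and 7.72, a difference of 1.22. Hoxc5 went the other way, with 4.62 and 9.43 in wild type and 5.56 and 8.39 in the Ctcfl line. Its difference of -1.99 depended on starting signals below the filter level, and it became -1.04 when signals below log2 6 were set to 6. Hoxc6 and Hoxc4, its neighbours in the same cluster, differed by 0.46 and 0.31.

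Several mesoderm and mesenchyme genes responded upward in wild type and little or not at all in the Ctcfl line. Twist1, a mesenchymal transcription factor gene, measured 7.17 and 9.56 in wild type and 7.74 and 7.48 in the Ctcfl line. Osr1, an intermediate and lateral mesoderm factor gene, measured 7.13 and 10.00 in wild type and 7.26 and 7.90 in the Ctcfl line. Foxf1, a splanchnic mesoderm factor gene, measured 7.13 and 9.11 in wild type and 7.27 and 7.42 in the Ctcfl line. In each case the treated wild-type array stood alone at the top. The differences were -2.65, -2.23 and -1.83. Kdr, the VEGF receptor gene of vascular progenitors, followed with -1.54. Of the 30 measured streak and mesoderm genes, 22 had a difference below 0, the median was -0.37, none was 2-fold higher and 5 were 2-fold lower, against 1.90% and 0.754% of all genes. The fifth, Evx1, went down in the Ctcfl line alone, with responses of -0.11 and -1.39. Lhx1, Foxc1 and Foxc2 were exceptions with responses of similar size, differing by 0.07, 0.23 and 0.16. In bulk RNA, fewer cells of a type and less RNA per cell cannot be told apart.

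Some matrix genes also had their highest signal in treated wild type, and Nepn had the lowest difference of all genes. Nepn measured 6.15 and 10.76 in wild type and 5.61 and 7.25 in the Ctcfl line, so that its responses of 4.61 and 1.64 were 7.84-fold apart. Among the gene lists, Nepn was counted with endoderm and not with mesenchyme and matrix. Flrt2, which encodes a transmembrane FGF and guidance partner, measured 6.58 and 9.16 in wild type and 6.73 on both Ctcfl arrays. Hapln1, which links hyaluronan to proteoglycans, measured 6.60 and 8.89 in wild type and 5.91 and 6.29 in the Ctcfl line. Again the treated wild-type array was the highest of the 4 for these 3 genes. Dcn, the decorin gene, had responses of 4.69 and 2.91. Lum, the lumican gene, measured 7.02 in treated wild type and was below log2 6 on the other 3 arrays, and its difference was -1.02 with signals below 6 set to 6. Igfbp5, an IGF-binding protein gene, had 3.52 and 2.42. Ripply3, a T-box repressor gene of the pharyngeal region, measured 7.30 and 10.91 in wild type and 7.24 and 8.57 in the Ctcfl line. Rfx6, an endocrine and gut endoderm factor gene, measured 6.27 and 8.52 in wild type and stayed at 6.19 and 6.24 in the Ctcfl line.

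Not every matrix gene followed. Of 38 mesenchyme and matrix genes, whose median was -0.07, 5 were 2-fold lower and 3 higher, against 0.754% and 1.90% of all genes. The 3 higher ones were Thbs2 at 1.94, Thbs1 at 1.67 and Cnn1 at 1.21, which encode 2 thrombospondins and the smooth muscle protein calponin. Of the 8 fibroblast markers, 3 had a difference below 0, among them Dcn and Lum, and 5 had one above 0. Their summed signal went from log2 10.85 to 11.64 in wild type and from 10.42 to 10.93 in the Ctcfl line, and all 8 were above log2 6 on the treated wild-type array against 7 on the treated Ctcfl array. Dcn carried that sum: without it, an alternative chosen after seeing the data, the sum was 10.80 and 10.65 in wild type and 10.36 and 10.55 in the Ctcfl line. The 9 primitive and visceral endoderm markers summed to 10.60 and 11.03 in wild type and 10.57 and 10.53 in the Ctcfl line, and 8 of them had a difference below 0. The part of such cells in the result was not tested.

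Growth factor and imprinted genes were also among the wild-type upward responses. Igf2, the insulin-like growth factor 2 gene, measured 8.80 and 11.14 in wild type and 8.59 and 9.36 in the Ctcfl line, a difference of -1.57. Zim1, an imprinted zinc finger gene, measured 8.50 and 11.03 in wild type and 8.92 and 9.57 in the Ctcfl line, a difference of -1.89. Both started at similar levels in the 2 lines. With Dcn they were the 3 of 53 measured imprinted genes that were 2-fold apart, against 2.65% of all genes, and the list median was -0.13. Peg3 and Mest, imprinted genes with high signals, differed by -0.14 and -0.10. Grb10, an imprinted adaptor gene, was log2 2.56 and 2.86 higher in the Ctcfl line in the 2 states, and its responses differed by 0.30.

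The integrated stress response list had the median difference farthest from 0 of the 28 lists. This pathway is driven by the factors ATF4 and CHOP and turns on amino acid transporters, amino acid synthesis enzymes and aminoacyl-tRNA synthetases when amino acids run short or protein folding fails. Of 41 measured genes, 39 had a difference above 0, 14 were 2-fold higher and none was 2-fold lower, against 1.90% and 0.754% over all genes. The list median was 0.79. In wild type 23 of the genes were at least 2-fold lower after retinoic acid, and 3 were in the Ctcfl line. Over all genes these shares were 2.62% and 1.50%, so falls were more frequent in wild type there too. The median responses of the list were -1.07 and -0.22. The list was written with earlier results of these data known.

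Among the regulators, Ddit3, which encodes CHOP, measured 9.47 and 7.92 in wild type and 8.26 and 8.85 in the Ctcfl line, a difference of 2.14. Atf4 measured 10.02 and 9.02 in wild type and 9.86 and 9.68 in the Ctcfl line, a difference of 0.82. Trib3, a feedback inhibitor gene, had responses of -1.24 and -0.62. Jdp2, a bZIP repressor gene, differed by 1.48 and Nupr1, a stress-induced cofactor gene, by 1.27. Atf3 responded upward in both lines, by 0.29 and 1.05.

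Transporter and enzyme genes were among the 14. Chac1, which degrades glutathione, measured 10.09 and 7.63 in wild type and 8.65 and 8.02 in the Ctcfl line. Slc7a11, the cystine transporter gene, measured 8.28 and 6.12 in wild type and 6.73 and 6.39 in the Ctcfl line. Slc1a4, a neutral amino acid transporter gene, measured 12.12 and 10.18 in wild type and 10.71 and 10.49 in the Ctcfl line. The wild-type undifferentiated array was the highest in all 3, and the treated wild-type array was the lowest. The differences were 1.82, 1.83 and 1.72, and that of Slc7a11 was 1.17 when its probe sets were averaged. Asns, the asparagine synthetase gene, measured 12.38 and 10.53 in wild type and 11.72 and 11.16 in the Ctcfl line, a difference of 1.29. Mthfd2, an enzyme gene of mitochondrial one-carbon metabolism, differed by 1.56.

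Array by array, 38 of the 41 stress genes had their highest signal in undifferentiated wild-type cells and 31 their lowest in treated wild-type cells. Over all 18310 genes these counts were 6100 and 3689. For 32 of the stress genes the Ctcfl line was below wild type before treatment and above it after, against 3845 of all genes. The median line difference was -0.52 before treatment and 0.24 after it. Cth, which makes cysteine, was an exception, with responses of -1.95 and -2.02. The unfolded protein and heat shock list of 26 genes had a median of -0.07. Herpud1, an ER degradation gene, was its 1 gene 2-fold apart at 1.72, against 2.65% of all genes.

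Short stretches of 4 stress gene promoters, picked among those with a match, show the amino acid response element, to which ATF4 and its partners bind. The motif searched was TGATGNAA on both strands, so that a match may read in either direction. On GRCm38.p6, Chac1 lies at chr2:119351019-119351086 and Vldlr at chr19:27216790-27216857, both on the plus strand, and Slc7a11 at chr3:50443623-50443709 and Asns at chr6:7693210-7693262, both on the minus strand. Capitals mark the matches.
Chac1: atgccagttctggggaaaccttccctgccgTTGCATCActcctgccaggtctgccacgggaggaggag
Slc7a11: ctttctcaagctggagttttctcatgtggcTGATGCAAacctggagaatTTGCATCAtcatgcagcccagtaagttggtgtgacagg
Asns: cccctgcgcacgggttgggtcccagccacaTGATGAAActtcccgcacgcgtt
Vldlr: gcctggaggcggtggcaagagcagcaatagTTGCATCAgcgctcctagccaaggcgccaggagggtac
Of the 34 stress genes with a window, 12 (35.3%) held the motif, and of the 12 that were 2-fold higher, 8 did (Asns, Chac1, Jdp2, Nupr1, Pck2, Slc1a4, Slc7a11 and Vldlr). Ddit3 and Mthfd2 were not among the genes found with it. The share was 3.14% of 14149 genes past the filter and 3.97% of all windows. Since the list was written from known targets of the pathway, its share of motifs is not independent of that choice. Over all genes with a 2-fold higher difference, 23 of 268 (8.58%) held the motif, and over those with a 2-fold lower one, 3 of 87 (3.45%). For the wild-type-specific downward responses it was 12 of 99 (12.1%). The 23 include the 8 stress genes named above, and the wild-type-specific set also holds stress list genes. Neither share is therefore independent of the list. The CTCF core motif, searched the same way, was found in 445 of 14149 genes past the filter (3.15%). It was found in 10 of 268 relatively higher genes (3.73%) and 1 of 87 relatively lower ones (1.15%).

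Outside the stress list, further genes went down at least 2-fold in wild type and less, or not at all, in the Ctcfl line. Rassf4 measured 9.50 and 6.77 in wild type and 7.04 and 6.64 in the Ctcfl line. Txnip, which encodes a thioredoxin-binding regulator of glucose uptake, measured 11.38 and 10.30 in wild type and 9.17 and 10.14 in the Ctcfl line. Pde9a, a cyclic GMP phosphodiesterase gene, measured 9.36 and 7.79 in wild type and 8.11 and 9.04 in the Ctcfl line. In all 3 the wild-type undifferentiated array was the highest, and Txnip and Pde9a moved in opposite directions in the 2 lines. Stat4, a cytokine signalling factor gene, had responses of -2.97 and -0.97, and Pla2g7, a secreted phospholipase gene, of -2.34 and -0.33. Eno2, a glycolytic enzyme gene, had -1.22 and 0.08.

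Some pluripotency genes retained more signal in the treated Ctcfl line. Dppa2, a chromatin factor gene of pluripotent cells, measured 10.32 and 7.85 in wild type and 11.21 and 10.38 in the Ctcfl line, which was 5.76-fold higher after retinoic acid. Nr0b1, which encodes the orphan receptor DAX1, measured 9.98 and 6.94 in wild type and 10.67 and 8.88 in the Ctcfl line. Nanog measured 10.83 and 8.47 in wild type and 11.63 and 10.05 in the Ctcfl line. In all 3 the treated Ctcfl array was above the treated wild-type array. Their differences of responses were 1.63, 1.25 and 0.78. Otx2, a factor gene of the epiblast and forebrain, had responses of -4.11 and -2.73. The list as a whole did not lean this way, since 25 of 45 genes had a difference below 0 and the median was -0.11. Pou5f1, the OCT4 gene, had responses of -1.27 and -1.89, and Sox2 of -0.46 and -0.18.

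Downward responses that reached 2-fold in the Ctcfl line alone started from a higher level there. All 34 such genes had their highest signal on the undifferentiated Ctcfl array, which the class rule favours, by a median of log2 1.23 over wild type, and after retinoic acid the median line difference was -0.10. Wnt8a, a Wnt ligand gene of the primitive streak, measured 8.32 and 7.95 in wild type and 9.69 and 8.04 in the Ctcfl line. Wnt3, which starts gastrulation, measured 7.22 and 7.37 in wild type and 8.97 and 7.90 in the Ctcfl line. Cdx2, a caudal factor gene, measured 7.09 and 7.17 in wild type and 8.37 and 7.11 in the Ctcfl line. In each the undifferentiated Ctcfl array was the high one, and the differences were -1.28, -1.22 and -1.33. Evx1, a streak factor gene, differed by -1.28, and Lef1, a Wnt effector gene, by -1.21. Of 38 Wnt pathway genes, 4 were 2-fold lower and none higher, against 0.754% and 1.90% of all genes. The fourth, Wnt5a, was instead a wild-type upward response, of 1.62 against 0.39.

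Of 29 FGF pathway genes, whose median was -0.07, 2 were 2-fold higher and 4 lower, against 1.90% and 0.754% of all genes. The 4 were Flrt2, with an upward response in wild type alone, and 3 others. These 3 went down at least 2-fold in the Ctcfl line and less than 2-fold in wild type. Spry2, an inhibitor of receptor tyrosine kinase signalling, measured 8.73 and 8.14 in wild type and 9.88 and 7.94 in the Ctcfl line. Etv4, an FGF-induced factor gene, measured 8.32 and 7.61 in wild type and 9.25 and 7.49 in the Ctcfl line. Fgf5, a ligand gene of the primed epiblast, measured 7.78 and 7.56 in wild type and 9.61 and 8.08 in the Ctcfl line. The treated levels of the lines were close for Spry2 and Etv4, while the starting levels were apart. Dusp4, a MAP kinase phosphatase gene, and Fgfr2 were the 2 higher ones, with 1.56 and 1.83. Ccnd1 measured 9.52 and 9.42 in wild type and 11.34 and 9.82 in the Ctcfl line, a difference of -1.42. Nefl, a neurofilament gene, measured 8.47 and 7.29 in wild type and 10.39 and 7.54 in the Ctcfl line, an exaggerated response with a difference of -1.68.

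Chosen after their values were seen, 3 further genes completed this group. Cdx4, a caudal factor gene, measured 6.35 on both wild-type arrays and 7.94 and 6.45 in the Ctcfl line. Apln, the apelin gene, measured 7.57 and 7.53 in wild type and 8.96 and 7.29 in the Ctcfl line. Apela, which encodes a second ligand of the apelin receptor, measured 10.41 and 10.11 in wild type and 10.82 and 8.84 in the Ctcfl line. For Cdx4 and Apln the undifferentiated Ctcfl array was the high one, and for Apela the treated Ctcfl array was the low one. Eomes, a streak factor gene of the mesoderm list, was higher in the Ctcfl line in both states, by 1.42 and 0.86, with a difference of responses of -0.56. Myc had responses of 1.05 and -0.56.

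**Figure D4:**
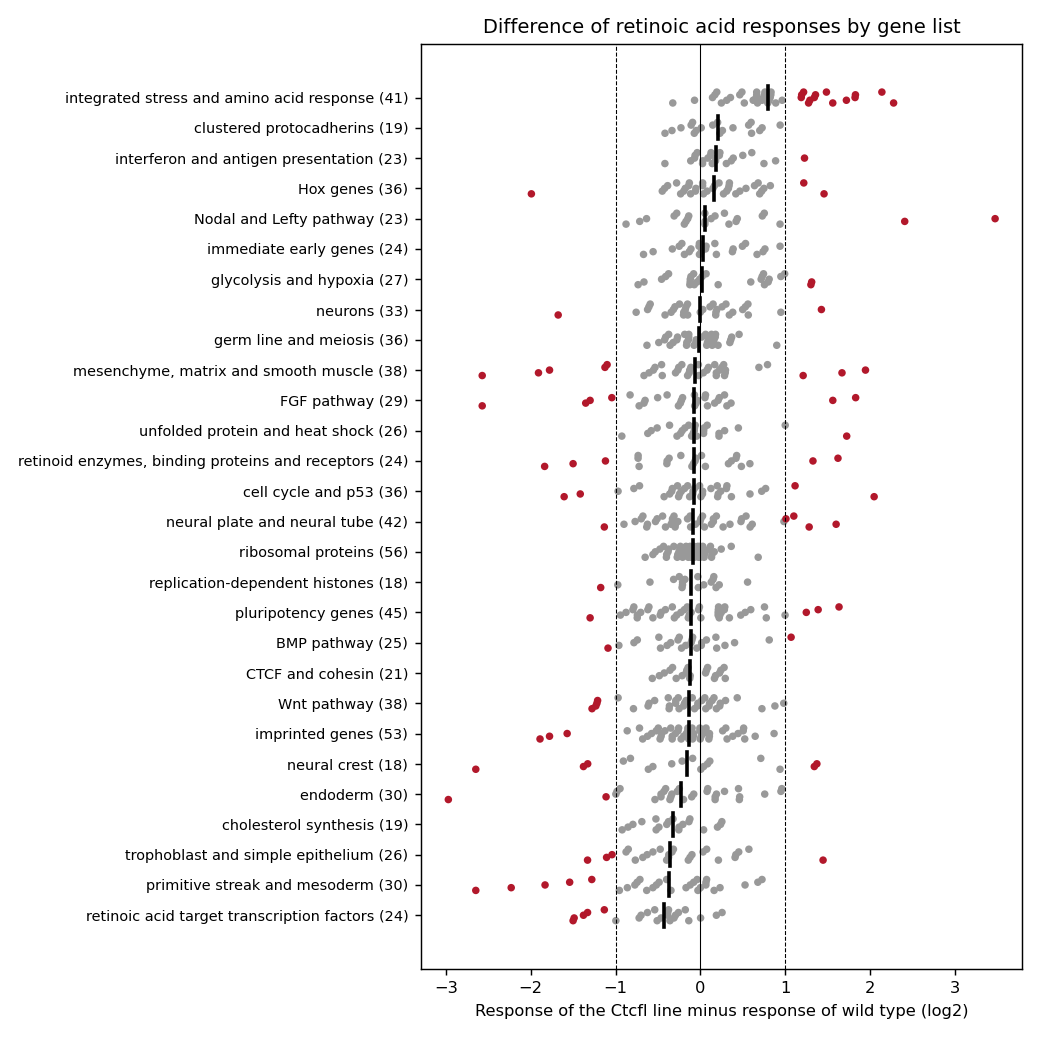
Difference of retinoic acid responses (x axis, log2, Ctcfl line minus wild type) for the measured members of the 28 gene lists, 1 point per gene and red for genes past the dashed lines at 2-fold, with a bar at the list median and no error bars. The stress list is shifted to the right with a median of 0.79, and the mesoderm and retinoic acid target lists lie to the left at -0.37 and -0.43.

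Below 0 with the mesoderm list lay trophoblast at -0.35, cholesterol synthesis at -0.32 with 15 of 19 genes below 0, and endoderm at -0.22. In the endoderm list 2 of 30 genes, Nepn and Sox7, were 2-fold lower, against 0.754% of all genes. None of the 56 ribosomal protein genes, 36 germ line genes, 24 immediate early genes, 21 CTCF and cohesin genes, 19 cholesterol synthesis genes or 19 clustered protocadherin genes was 2-fold apart. The share over all genes was 2.65%, so a count of 0 in a list this small says little about its members. The list medians, in the same order, were -0.09, -0.02, 0.04, -0.13, -0.32 and 0.20. Of 58 protocadherin genes listed, 19 passed the filter, with median responses of 0.44 in wild type and 1.08 in the Ctcfl line. The germ line is where Ctcfl is normally expressed, and the protocadherin clusters are regulated through CTCF sites. The 25 BMP pathway genes had 1 gene higher, Id4 at 1.07, and 1 lower, Id3 at -1.09, against 1.90% and 0.754% of all genes. Id4 and Id3 both encode inhibitors of bHLH factors. Id4 fell under 2-fold, at 0.97, after quantile normalization.

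Some strong responses were of equal size. Of 93 genes that responded at least 4-fold in both lines, 36 differed by less than log2 0.25. Another 11 of the 93 were 2-fold apart, a larger share than the 2.65% of all genes. Plxna2, a semaphorin receptor gene, measured 7.85 and 11.19 in wild type and 8.19 and 11.50 in the Ctcfl line, and its responses differed by -0.03. Dach1, a nuclear cofactor gene, measured 6.93 and 9.95 in wild type and 6.77 and 9.88 in the Ctcfl line. Foxi3, a placode factor gene, measured 10.77 and 7.30 in wild type and 11.11 and 7.77 in the Ctcfl line. Each line thus gave the same change to within 1.09-fold for these 3 genes. Ednrb, an endothelin receptor gene, had responses of 3.74 and 3.53.

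Probe sets for microRNA genes were also on the array, and 14 of 280 such genes (5%) were 2-fold apart, 8 higher and 6 lower, against 2.65% of all genes. Whether they read the primary or the mature RNA is not given in the sources used here. Among the 6 lower genes, Mir302b at -1.09 had treated signals of 3.22 in wild type and 2.87 in the Ctcfl line, below the filter level. Mir669g and Mir669i, of 1 family by name, both had -1.17. Whether the 14 genes are independent readings was not tested. Mir9-2 was chosen after its values were seen. It measured 3.04 and 3.18 in wild type and 3.37 and 6.20 in the Ctcfl line. The treated Ctcfl array alone passed the filter, so its level is set against background, and the difference was 0.20 when signals below log2 6 were set to 6. C130071C03Rik, the non-coding RNA gene that contains it, measured 5.51 and 5.57 in wild type and 5.25 and 7.34 in the Ctcfl line, and whether the 2 probe sets read the same transcript was not tested. Mirlet7e measured 6.68 and 6.31 in wild type and 6.47 and 7.67 in the Ctcfl line, a difference of 1.56, while Mir99b from the same cluster differed by -0.12. The mature products are shown because Mir9-2 and its 2 paralogs yield an identical miR-9-5p, a microRNA of neural progenitors, so that a signal from the mature form could not be assigned to a locus. RefSeq on GRCm38.p6 places the mature sequences at chr13:83738821-83738843 for Mir9-2 and chr17:17830366-17830387 for Mirlet7e, both on the plus strand, and capitals mark the seed, bases 2 to 8.
miR-9-5p: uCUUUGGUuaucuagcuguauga
let-7e-5p: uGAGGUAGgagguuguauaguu
Mir9-1 and Mir9-3, with the same mature sequence, differed by -0.17 and 0.12. The 2 mature sequences have different seeds.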

How the data were processed

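RNA of 4 samples was read on 1 Affymetrix array each. The authors deposited log2 expression values made by RMA (background correction, quantile normalization and probe summary), per the labels, and Affymetrix Expression Console and Transcriptome Analysis Console are named in the submitters' processing notes. Software versions and the genome build are not given in the sources used here. Probe sets were named through the platform annotation: 23521 had 1 symbol, 1814 several and 16010 none in the table used here, and 18164 of the genes past the filter were matched to RefSeq by gene identifier. A gene took its probe set with the highest mean signal, and genes at or above log2 6 on at least 1 array were kept. Responses, their difference and the classes at 2-fold were computed with Python 3.11.15, pandas 2.3.3 and numpy 2.4.6, and drawn with matplotlib 3.10.9. The computation was tested on simulated data. No statistical test was run, because each group has 1 array and no replicate was available to measure error, and the number of arrays limits the precision.

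The members and the gene lists were chosen with earlier results of these data known. Named genes were Ctcfl and Ctcf, the 20 highest and 20 lowest differences, 6 per class, up to 6 members at least 2-fold apart per list, 6 equal strong responses and a few anchor genes, leaving out predicted genes, clone names, olfactory and vomeronasal receptors and small RNAs. Other genes named in the text were added from the lists or, where so stated, after their values were seen. Alternatives changed the filter, the threshold, the limit on the line without a 2-fold response, the normalization, the choice of probe set, the centring and a floor at log2 6.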

Additional observations from a re-analysis of the deposited data

Results flagged for a closer look

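In 48 genes, 18 of them among the genes chosen by rule, the 2 lines moved in opposite directions, each by at least log2 0.5. None of these differences was tested, since each line has 1 array per state. In the genes where the Ctcfl line went up and wild type went down, the differences of responses were 2.50 for Pde9a, 2.28 for Vldlr, 2.14 for Ddit3, 2.13 for the muscle actinin gene Actn3, 2.05 for Txnip and 2.03 for the peroxisomal transporter gene Abcd2. They were 1.94 for Thbs2, 1.67 for Thbs1, 1.60 for the cytidine deaminase gene Cda, 1.58 for Catsperg1, 1.52 for the sarcoglycan gene Sgcb and 1.51 for the epoxide hydrolase gene Ephx1. The placental growth factor gene Pgf and the translation regulator gene Cpeb1 both had 1.50. In the genes where wild type went up and the Ctcfl line went down, the differences were -2.25 for Rtl8c, a retrotransposon-derived gene, -1.61 for Myc, -1.38 for Tfap2a and -1.18 for the histone gene H4c9. Rtl8c measured log2 6.72 and 8.41 in wild type and 9.81 and 9.25 in the Ctcfl line, so the Ctcfl line was the higher one in both states.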

How the results depend on the processing

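With a 3-fold threshold the counts were 62 genes relatively higher, 34 lower, 4 blunted, 1 exaggerated, 39 wild-type-specific, 24 Ctcfl-line-specific and 28 in which neither response reached the threshold. Centring each response on its median gave 1 gene with opposite responses in place of 0. Under the other alternatives every class and direction stayed within 1.5 times its count. Of the 348 higher and 138 lower genes, 305 and 135 were kept with quantile normalization, which gave 312 and 158. The median differences of the 28 lists moved by less than the SD between probe sets under 6 alternatives. Averaging probe sets changed the difference of Acss1 to 1.31, Foxq1 to 1.26, Slc7a11 to 1.17 and Dll1 to 0.50. Setting signals below log2 6 to 6 changed Hesx1 to 0.76, Hoxc5 to -1.04 and Nepn to -3.36. Quantile normalization took Pou3f1 to 0.90. No paired analysis was possible because each group has 1 array. The share of genes 2-fold apart was 1.04% at highest signals of log2 6 to 7, 4.64% at 9 to 10 and 2.98% above that.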

Other observations

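Neuronal vesicle and axon genes were found on both sides of the difference. Syt1, a synaptic vesicle calcium sensor gene, measured log2 8.90 and 7.78 in wild type and 7.48 and 7.78 in the Ctcfl line, a difference of responses of 1.43. Ap3b2 measured 8.06 and 9.11 in wild type and 7.24 and 10.21 in the Ctcfl line. Robo2, an axon guidance receptor gene, measured 7.14 and 10.31 in wild type and 6.94 and 8.42 in the Ctcfl line, a difference of -1.67. Nrp2, a semaphorin co-receptor gene, measured 7.42 and 9.67 in wild type and stood at 9.26 and 9.45 in the Ctcfl line, so that its untreated Ctcfl level was near the treated wild-type one. The neuron list of 33 genes had a median difference of 0.00. It held 1 gene 2-fold higher and 1 lower, against 1.90% and 0.754% of all genes.

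Probe sets without a gene symbol in the table used here differed by at least 2-fold more often than named ones. Of 10332 such probe sets past the filter, 456 were relatively higher and 312 lower, 7.43% together, against 2.05% of the 1418 probe sets with several symbols. By chromosome, the share of genes 2-fold apart ran from 1.85% on chromosome 11 to 3.92% on chromosome 6. Of the 26 unequal genes with more than 1 probe set past the filter, 18 had every probe set on the same side of 0 and 3 had every probe set at least 2-fold apart, namely Bex4, Mir669g and Zfp640.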
